A study of Mus musculus with 23 samples.

Results

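Neutrophil-line cells from micro-dissected clumps of mouse bone marrow were divided by the cells they had been attached to. The marrow had been flushed gently, small groups of attached cells had been cut apart with needles, and each cell had been sequenced on its own by CEL-seq, a method that counts the 3' ends of transcripts. A cell was kept if it held at least 1000 transcripts. Members were chosen by measured values of 7 genes: a cell was taken as neutrophil line if, per 10000 of its transcripts, Elane, Mpo and Prtn3 summed to at least 40, or Ngp and Camp to at least 300, or Retnlg and Mmp9 to at least 50. Of 707 kept micro-dissected cells, 314 met this rule, and 215 of them lay in clumps with at least 1 other kept cell. These 215 cells, of 952 kept cells in the whole series, are described here. In 106 of them every kept partner was also neutrophil line, and in 109 at least 1 partner was not. A further 98 neutrophil-line cells had no kept partner, and 1 had no clump number in its column name. The micro-dissected cells came from 17 libraries, and both kinds of cell compared here come from the same libraries, with no treatment in the labels. The series also holds sorted hematopoietic stem cells (Lineage- Kit+ Sca1+ CD150+ CD48-), which are not clump cells and enter only the check of the rule. Strain, age, sex and number of mice are not stated in the sources used here, so a p-value here reflects how far libraries differ among themselves, and that spread can be technical. Clumps had to survive flushing and dissection, and a partner that was lost or fell under the limit on transcripts is not seen.

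Neutrophils mature in the marrow in an order that can be read from their granules. Promyelocytes make the proteins of primary granules, such as elastase (Elane), myeloperoxidase (Mpo) and proteinase 3 (Prtn3). Myelocytes and metamyelocytes make those of secondary granules, such as cathelicidin (Camp) and neutrophilic granule protein (Ngp). Band and segmented cells make gelatinase (Mmp9) and resistin-like gamma (Retnlg) before they leave for the blood. Because the rule was built from these 7 genes, the stage of a cell was taken as the sum that was largest relative to its threshold, which is a range on a score and not a cell type. The 314 neutrophil-line cells comprised 81 of the primary granule stage, 159 of the secondary granule stage and 74 of the gelatinase stage.

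Of the genes that the rule did not use, S100a8, Ltf and Ctsg followed the label. S100a8, which codes for a subunit of the antimicrobial protein calprotectin, averaged 226, 825 and 779 transcripts per 10000 in cells of the 3 stages in that order, against 25.1 in the other kept micro-dissected cells and 0.0624 in sorted stem cells. Lactoferrin (Ltf), a secondary granule protein, averaged 1.95, 138 and 38.1 per 10000 in the same order. Cathepsin G (Ctsg), a primary granule protease, averaged 18.5, 0.417 and 0.129. Markers of other lineages were also present. The eosinophil gene Prg2 averaged 15.6, 6.12 and 6.30, against 98.9 in the other kept cells. The eosinophil marker sum reached 674 and 1240 per 10000 in single members. The monocyte and dendritic marker sum was at least 10 in 86 of 106 members with neutrophil-line partners alone. With another partner it was so in 88 of 109. That list holds Ly6c2, with medians over 12 libraries of 24.0 and 30.6 per 10000 in these 2 kinds of member. Ly6c2 at such a level passes 10 alone, so this sum does not by itself show another lineage. None of 245 kept sorted stem cells met the rule, which allows a share of up to 1.22% (counting error only). Members lay between 1.03 and 15.3 times a threshold with a median of 3.36, and the kept partners that failed the rule lay between 0 and 0.742 times with a median of 0.0966. Of the members, 11 were within 1.5 times of the threshold. The nearest values on either side were 41.0 and 35.6 per 10000 for the primary granule sum, 308 and 271 for the secondary granule sum, and 50.8 and 47.4 for the gelatinase sum.

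Neutrophil-line cells were found in 144 of the 214 clumps that had at least 2 kept cells. Of these, 51 clumps were made of neutrophil-line cells alone and 93 were mixed. The numbers that random joining would give were not computed. Only 14 of the mixed clumps held 2 or more neutrophil-line cells. Members with neutrophil-line partners alone sat mostly in clumps of 2 kept cells (94 of 106, with 12 in clumps of 3). Those with another partner sat in clumps of 2 (65 cells), 3 (31 cells), 4 (8 cells) and 5 (5 cells), so clump size moved with partner type. The 2 kinds of member came mostly from the same libraries: 12 held at least 2 cells of each, with 100 and 107 cells in all. These libraries carry the comparisons of the 2 kinds by library that follow. Replicates 2 and 8 held only members with neutrophil-line partners alone (4 and 2 cells), and replicate 7 only members with another partner (2 cells). Pooled counts include these cells. A library's summed transcripts ranged from 2335 to 67959 for the cells with neutrophil-line partners alone and from 5859 to 119069 for the cells with another partner. The smallest libraries had 2 cells of a kind, and no 2 of the 707 kept columns held the same values.

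Erythroid cells were the most frequent partners from outside the line. By marker genes, 67 of the 113 other partners were erythroid (59.3%, exact binomial 95% interval 49.6 to 68.4, in 13 libraries). Eosinophils, granulocytes marked by major basic protein (Prg2) and the Ear ribonucleases, made up 20 (17.7%, interval 11.2 to 26.0, in 10 libraries). The rest were 5 macrophages, 5 megakaryocytes, 4 plasma cells, 3 cells of the monocyte and dendritic list, 3 with skeletal muscle transcripts and 2 B cells, and 4 passed no list. No partner was classed as stromal or endothelial (0 of 113, interval up to 3.21%). These intervals cover counting error only, and a class is the marker list with the highest sum, at least 10 per 10000. Class shares among all 393 kept micro-dissected cells outside the line are not given here. The shares of partners therefore do not show a preference in attachment.

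**Figure D1:**
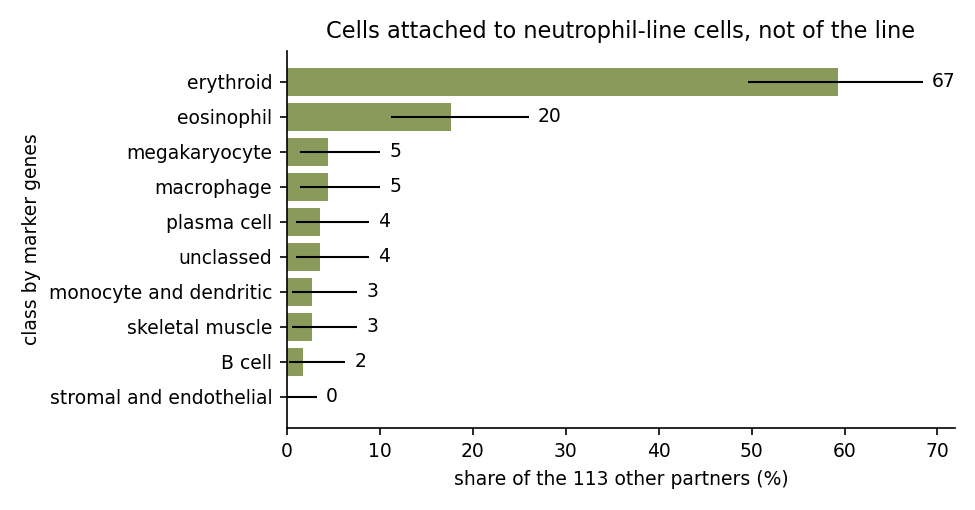
Kept cells that shared a clump with a neutrophil-line cell but failed the neutrophil-line rule, by marker class. Bars give the share of all 113 such cells in percent, lines are exact binomial 95% intervals, and the figures beside the bars are numbers of cells, of which 67 were erythroid and 20 eosinophil.

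The kind of partner went with the stage of the neutrophil-line cell. Among cells with another partner, 40 of 109 were of the primary granule stage (36.7%), against 15 of 106 with neutrophil-line partners alone (14.2%). The gelatinase stage went the other way, with 16 of 109 (14.7%) against 32 of 106 (30.2%). The secondary granule stage took similar shares, 53 of 109 (48.6%) and 59 of 106 (55.7%). Of the cells with no kept partner, 26 of 98 were of the primary granule stage (26.5%) and 25 of 98 of the gelatinase stage (25.5%), between the 2 kinds when pooled, while their mean gelatinase share per library, 32.0 ± 32.2% (SD, n = 12), was above that of both kinds. The stage comes from the rule's own genes, so these shares are a description and were not tested.

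The same order held in most libraries, with a wide spread. The share of primary granule cells per library had a lowest, median and highest value of 0, 31.0 and 100% with another partner and of 0, 9.55 and 100% with neutrophil-line partners alone. It averaged 34.8 ± 31.6% (SD, n = 12 libraries) with another partner and 18.8 ± 28.4% (SD, n = 12) without. It was higher with another partner in 8 libraries, lower in 2 and equal in 2. The share of gelatinase cells per library ran from 0 through a median of 9.19 to 40% with another partner, and from 0 through 25 to 66.7% with neutrophil-line partners alone. Its mean was 14.1 ± 14.2% and 26.3 ± 21.0% (SD, n = 12 each). It was higher with neutrophil-line partners alone in 7 libraries, lower in 2 and equal in 3. The SD of each share was larger than the gap between the means, and the ranges of the 2 kinds overlapped.

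**Figure D2:**
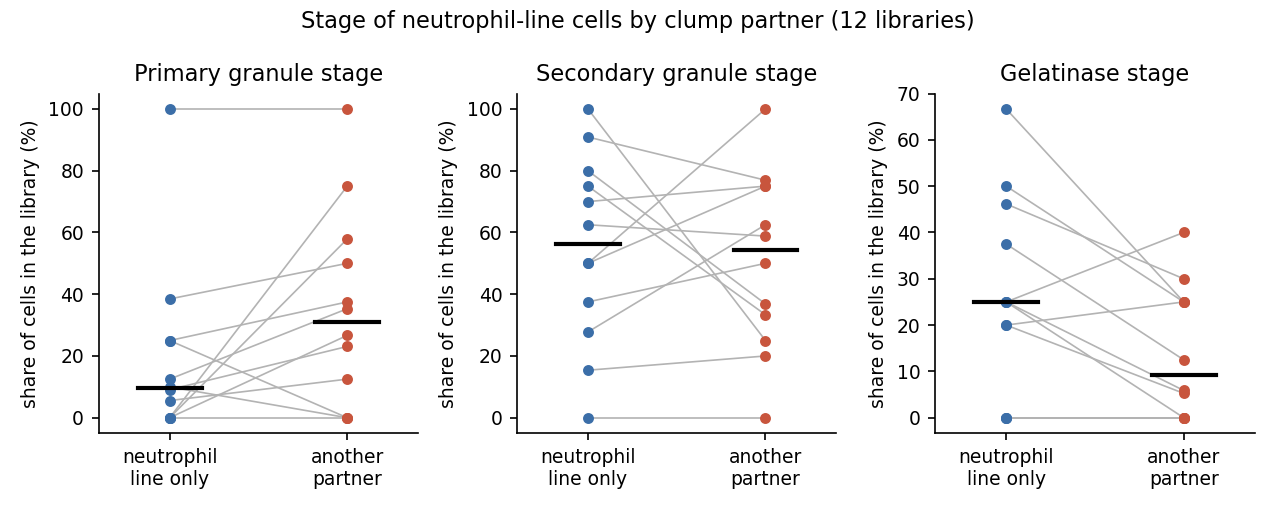
Share of neutrophil-line cells of each stage (%) in each of 12 libraries, by partner type. Each point is a library, grey lines join the 2 values of a library, and black bars are medians; the gelatinase share was higher with neutrophil-line partners alone in 7 of 12 libraries and the primary granule share was higher with another partner in 8.

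Partner classes were spread unevenly over the stages. At least 1 erythroid partner was present for 29 of the 40 primary granule cells that had another partner (72.5%), for 35 of the 53 secondary granule cells (66.0%) and for 5 of the 16 gelatinase cells (31.2%). An eosinophil partner was present for 5, 10 and 5 of these cells. Macrophage partners were recorded for 3 secondary granule and 3 gelatinase cells and for no primary granule cell. A megakaryocyte partner was present for 4 gelatinase cells and for 1 cell of each other stage. In all, 69 of the 109 cells had an erythroid partner. A cell with partners of several classes is counted under each, and the numbers per class are small.

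Neutrophil-line cells that shared a clump were also often of the same stage. Of 77 neutrophil-line pairs within clumps, 51 were of 1 stage (66.2%), against 44.4% for pairs from different clumps of the same library, weighted by the number of pairs within clumps. The pairs within clumps were 27 of 2 secondary granule cells, 16 of 2 gelatinase cells and 8 of 2 primary granule cells. Neighbouring stages were joined in 14 gelatinase and secondary granule pairs and 11 primary and secondary granule pairs. Only 1 pair joined the first and the last stage.

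The 7 genes of the rule showed the same order by level. Mmp9, the gelatinase of late neutrophils, had a lowest, median and highest level over the 12 libraries of 0, 3.67 and 8.98 transcripts per 10000 with another partner and of 0, 8.65 and 42.3 with neutrophil-line partners alone. It was higher with neutrophil-line partners alone in 9 libraries, and the mean was 3.0 times as high. Retnlg had medians of 6.55 and 23.1 per 10000 and was higher with neutrophil-line partners alone in 10 libraries. Ngp had medians of 221 and 350 and Camp of 222 and 309, each higher with neutrophil-line partners alone in 8 libraries. The means of Camp were 244 ± 119 with another partner and 257 ± 129 without (SD, n = 12). The primary granule genes had higher medians with another partner: 22.8 against 7.22 for Elane, 21.2 against 3.83 for Mpo and 29.9 against 10.3 for Prtn3. Elane and Prtn3 were higher with another partner in 8 of 12 libraries and Mpo in 7. Their means were also higher with another partner, but for Elane by far less than the spread, at 26.0 ± 21.8 against 24.7 ± 31.5 (SD, n = 12). These values chose the members and were not tested.

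Across all other genes, 2 of 1225 tested were called, both lower in cells with another partner (0.163% of genes tested, edgeR quasi-likelihood test with library as a term, Benjamini-Hochberg adjusted p under 0.05). They were Mmp8, the collagenase that neutrophils store in their granules, and S100a6, a small calcium-binding protein. No gene was called higher with another partner. Without adjustment, 52 genes were higher and 70 lower at p under 0.05 (4.24% and 5.71% of genes tested). DESeq2 on the same sums called 8 genes, all lower (0.653%): Mmp8, S100a6, Capg, Fmnl1, Fpr2, Psap, Actg1 and Tyrobp, the last of which was named after its value was seen.

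Mmp8 lies on mouse chromosome 9 at 7558456 to 7568485 on the plus strand (mm10, GENCODE vM21). Its lowest, median and highest levels were 0, 3.68 and 13.3 transcripts per 10000 with another partner, and 0, 9.73 and 31.1 with neutrophil-line partners alone. The level was lower with another partner in 8 libraries, higher in replicate 10, and 0 on both sides in 3. The ranges overlapped. The log2 fold change was -1.68 ± 0.31 (SE, edgeR adjusted p = 0.0150), on 210 and 455 transcripts in all. In neutrophil-line cells of the 3 stages in order, Mmp8 averaged 0.364, 6.90 and 56.4 transcripts per 10000.

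S100a6 lies on chromosome 3 at 90612882 to 90624181 on the plus strand of the same build. Its lowest, median and highest levels were 0, 3.65 and 21.1 per 10000 with another partner and 0, 11.8 and 45.7 without. It was lower with another partner in 9 libraries, higher in 2 and equal at 0 in 1, and the ranges overlapped. The log2 fold change was -1.63 ± 0.32 (SE, edgeR adjusted p = 0.0203). It averaged 0.497, 6.27 and 68.5 per 10000 over the 3 stages.

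With any 1 library left out, the log2 fold change stayed between -1.99 and -1.48 for Mmp8 and between -1.89 and -1.45 for S100a6, but the adjusted p did not always pass. Mmp8 missed the threshold without the library of replicate 3, 5, 9, 14 or 16, with adjusted p from 0.0536 to 0.0788. S100a6 missed it without any of these or of replicates 11, 12 and 17, with adjusted p of up to 0.170. In clumps of 2 kept cells alone no gene was called, with 22 at an unadjusted p under 0.05 and Mmp8 at -1.44 (edgeR adjusted p = 0.991). At 2000 transcripts, in 8 libraries, the log2 fold change of Mmp8 was -0.01 (edgeR adjusted p = 0.997) and that of S100a6 -0.93 (adjusted p = 0.604), and 0 genes were called with 79 at an unadjusted p under 0.05.

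**Figure D3:**
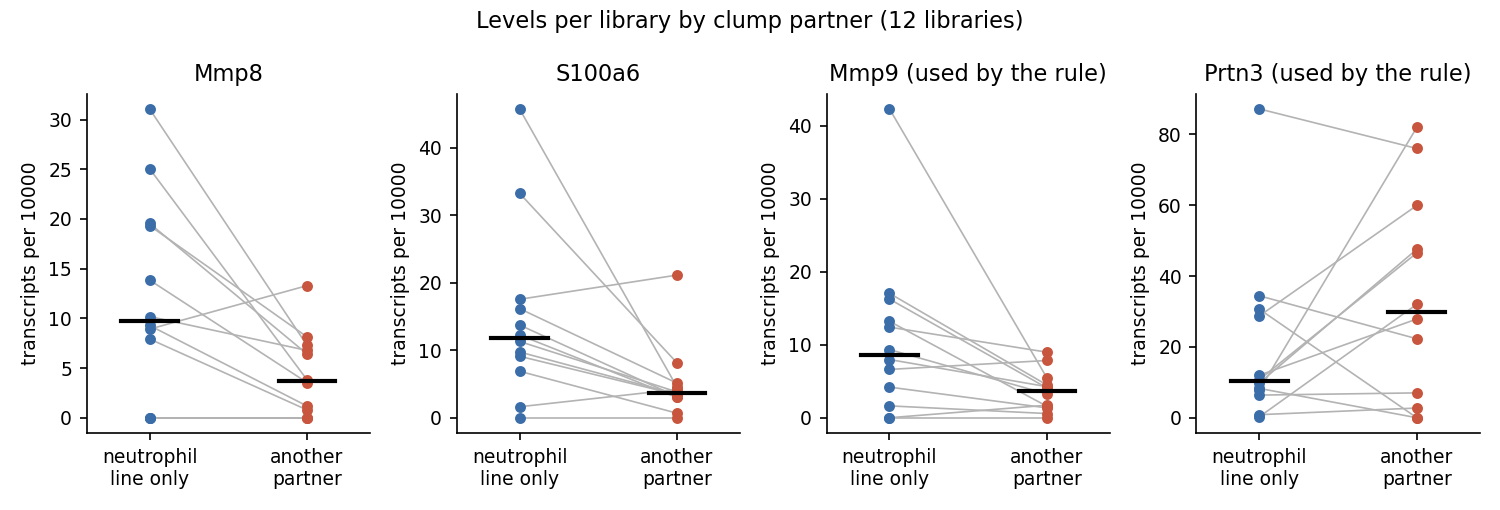
Transcripts per 10000 in each of 12 libraries for the 2 called genes and, as a description, for 2 genes that the rule used. Points are libraries, grey lines join the 2 values of a library and black bars are medians; the median of Mmp8 was 9.73 with neutrophil-line partners alone and 3.68 with another partner.

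Stage, as 1 of 3 ranges of the score, was then added to the fit, which leaves differences within a range. The sums were split by stage after the minimum of 2 cells had been applied. This gave 56 sums, some of them of 1 cell. With stage as a further term beside library, 466 genes could be tested and 0 were called (0%), with 1 higher and 22 lower at an unadjusted p under 0.05 (0.215% and 4.72%). The log2 fold changes of Mmp8 and S100a6 were -0.92 and -0.73, each with an edgeR adjusted p of 0.926. Within the secondary granule stage alone, which left 50 and 52 cells in 10 libraries, 1 of 403 genes was called (0.248%). That gene was Mmp8, at a log2 fold change of -1.65 ± 0.31 (SE, edgeR adjusted p = 2.2e-04). Its lowest, median and highest levels were 0, 0.830 and 8.56 per 10000 with another partner and 0, 4.60 and 63.8 without. It was lower with another partner in 8 of 10 libraries, higher in 1 and equal in 1. The highest level came from 2 cells of replicate 17, and without that library the log2 fold change was -1.55 (edgeR adjusted p = 0.0046). S100a6 had medians of 2.14 and 3.80 within this stage and a log2 fold change of -0.57 (edgeR adjusted p = 0.979). Within the primary granule stage, 3 libraries with 9 and 10 cells gave 0 calls among 370 genes (0%), with 3 at an unadjusted p under 0.05, all higher (0.811%). Cells of the gelatinase stage were not tested on their own.

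The cells with an erythroid partner were also set on their own. Against the 100 cells with neutrophil-line partners alone, the 68 cells with at least 1 erythroid partner had 8 of 850 genes called, all lower (0.941%). The 2 comparisons share the cells with neutrophil-line partners alone. Mmp8 stood at -2.69 ± 0.52 (log2, SE). Fpr2, a formyl peptide receptor that guides neutrophils to bacteria, stood at -1.58 ± 0.35. Lyz2, the lysozyme of myeloid cells, stood at -0.96 ± 0.24 and Slc2a3, a glucose transporter, at -1.70 ± 0.41. The other four were Btg1 (-1.69), an antiproliferative gene, Psap (-1.22), the precursor of lysosomal saposins, Ifitm6 (-1.29) and Cd52 (-0.87), a surface glycoprotein of leukocytes. The edgeR adjusted p ran from 0.0362 to 0.0488. S100a6 stood at -2.43 with an adjusted p of 0.110 there. Of the 69 cells with an erythroid partner, 29 were of the primary granule stage, and stage was not a term in that comparison.

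Of the genes lower with another partner in the comparison of all partners, 6 more were named by smallest p and did not pass. Fpr2 had medians of 2.44 and 4.77 per 10000 and a log2 fold change of -0.95. Capg, an actin-capping protein, had medians of 0.774 and 2.15 and a log2 fold change of -1.55, with the higher level in cells with neutrophil-line partners alone in 10 of 12 libraries. Slc2a3 stood at -1.19, Ifitm6 at -0.95, Plbd1 at -1.17 and Fmnl1, a formin of leukocytes, at -1.10. Their edgeR adjusted p ran from 0.170 to 0.182. By stage, Fpr2 averaged 0.163, 6.69 and 14.9 per 10000 and Slc2a3 0.256, 2.10 and 8.96.

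At the other end, 8 genes were named by smallest p and did not pass. Gstm1, a glutathione transferase, had a median of 4.79 per 10000 with another partner and 1.12 without, a higher level with another partner in 11 of 12 libraries, and a log2 fold change of 1.37. Prss57, a serine protease of primary granules, had medians of 2.92 and 0.923 and a log2 fold change of 1.05. Both were highest in the primary granule stage, where Gstm1 averaged 9.24 and Prss57 5.09 per 10000. The ribosomal protein gene Rpl35 had medians of 10.7 and 5.05 and a log2 fold change of 0.84. Snrpf, a splicing factor, stood at 0.90, Slc7a14 at 0.996, Rpl36a at 0.72, elongation factor Eef2 at 0.66 and Rps25 at 0.64. Their edgeR adjusted p ran from 0.204 to 0.290.

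The granule lists stood on different sides of 0. Over the 1225 genes the median log2 fold change was -0.01. Of 12 tested genes of the primary granule list outside the rule, 8 stood above 0 and 4 below, with a median of 0.81 and none called. Serglycin (Srgn), which packs granule proteins, stood at 0.98, while Lyz2 stood at -0.71 and haptoglobin (Hp) at -0.09. Though on this list, Lyz2 was lowest in the primary granule stage, with averages of 4.31, 40.3 and 39.5 per 10000 over the 3 stages. Of 16 secondary granule genes, 15 stood below 0 with a median of -0.39 and none called. Lipocalin 2 (Lcn2), which binds bacterial siderophores, had medians of 57.8 and 111 per 10000 and stood at -0.58, and lactoferrin stood at -0.47. Of 13 genes of the gelatinase and mature neutrophil list, 12 stood below 0 with a median of -0.51 and edgeR called 1, Mmp8, while DESeq2 also called Fpr2 (-1.07, adjusted p = 0.0256). Of 5 genes of the S100 and alarmin list, 4 stood below 0 with a median of -0.47 and 1, S100a6, was called. S100a8 and S100a9, the calprotectin subunits, stood at -0.47 and -0.39 and were higher with neutrophil-line partners alone in 9 of 12 libraries each. With stage as a term the medians of these 4 lists were 0.05, -0.27, -0.19 and -0.22, beside -0.09 for all genes then tested. With RLE (relative log expression) size factors, with library totals or in DESeq2, each of the 4 medians kept its sign, while at 2000 transcripts that of the gelatinase list was -0.01, with 4 genes above 0 and 5 below.

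All 48 tested cytosolic ribosomal protein genes stood above 0, with a median of 0.37 and none called. Of these 48, 12 were higher at an unadjusted p under 0.05, beside 52 of all 1225 genes tested (4.24%). The summed level of the list had a lowest, median and highest value of 345, 885 and 1329 per 10000 with another partner. Without, the values were 410, 560 and 1119. The sum was higher with another partner in 7 of 12 libraries and lower in 5. Rpsa stood at 0.40 and Rpl4 at 0.42. With stage as a term, 19 of 47 stood above 0 and 28 below, with a median of -0.03. RLE size factors moved the median of all genes from -0.01 to -0.13, and 46 of the 48 then stood above 0.

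**Figure D4:**
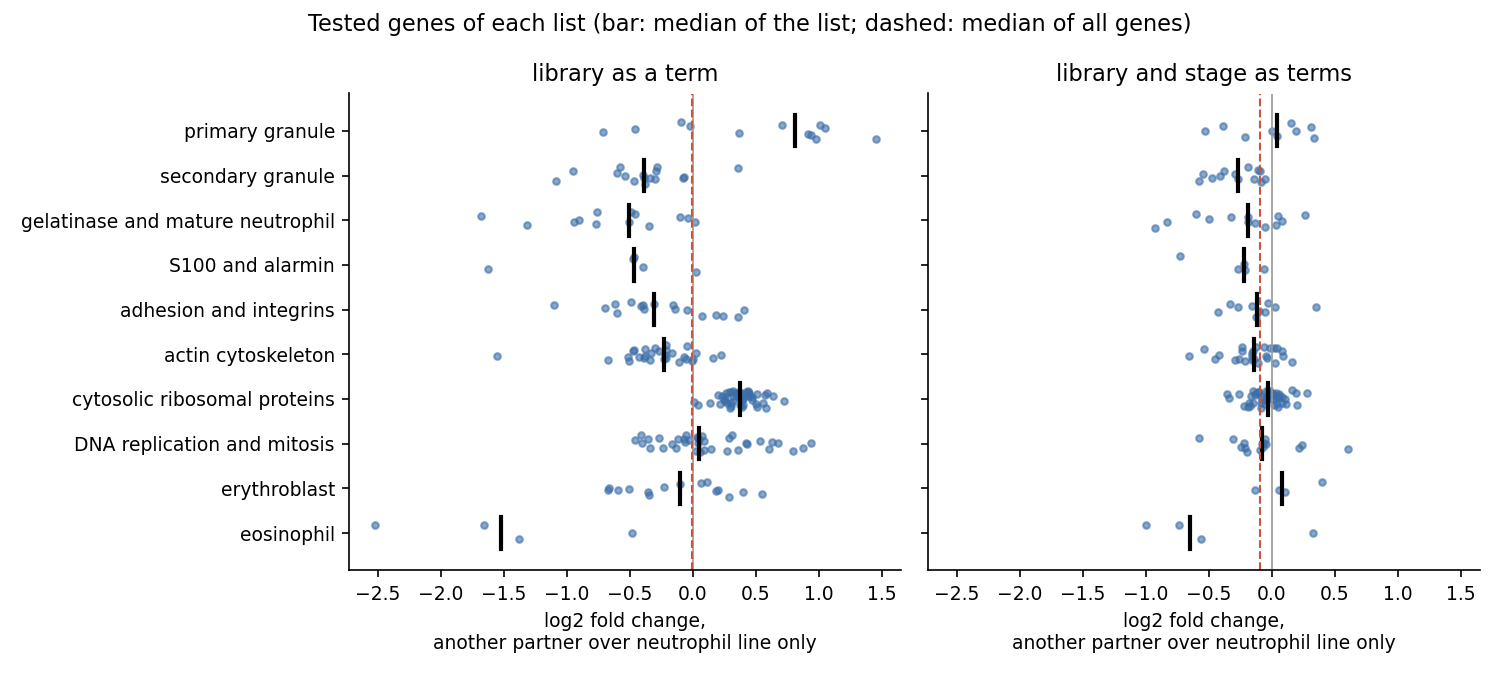
Log2 fold changes (cells with another partner over cells with neutrophil-line partners alone) of tested genes of 10 lists, with library as a term (left) and with library and stage as terms (right). Points are genes, black bars are list medians and the dashed red line is the median of all genes tested; the median of the ribosomal list was 0.37 on the left and -0.03 on the right.

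In the lists of other functions edgeR called no gene, while DESeq2 called Capg and Actg1 of the actin list lower, at adjusted p of 0.0190 and 0.0143. Of 37 DNA replication and mitosis genes, 23 stood above 0 and 14 below with a median of 0.05 and none called, and with RLE size factors the split turned to 14 above and 23 below. Of 29 actin cytoskeleton genes, 26 stood below 0 with a median of -0.23 and none called by edgeR, and Tmsb4x, which binds actin monomers, was higher with neutrophil-line partners alone in 10 of 12 libraries. Of 17 adhesion genes, 12 stood below 0 with a median of -0.31 and none called. Cd177, a surface antigen of neutrophils, stood at -0.39 and Cd63, a granule membrane protein, at 0.24. Granulocyte transcription factors gave 6 of 8 below 0 (median -0.40), among them Cebpe, needed for secondary granules, at -0.46. Chemokine and cytokine genes gave 5 of 8 below 0 (median -0.10), with the chemokine receptor Cxcr2 at -0.35 and the chemokine Ccl6 at -1.31 (SE 0.91). Stress genes gave 6 of 11 above 0 (median 0.00), and interferon and MHC class I genes 2 of 5 (median -0.05).

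Marker transcripts of erythroid and eosinophil partners were also summed in the neutrophil-line cells themselves. The 67 erythroid partners had a median of 181 per 10000 for the erythroid marker sum. Neutrophil-line cells with an erythroid partner had a median of 3.73, those with only other kinds of partner from outside the line 3.90, and those with neutrophil-line partners alone 4.75. A sum of at least 10 per 10000 was found in 13 of 69, 6 of 40 and 24 of 106 of these cells, and the highest sums were 224, 32.3 and 57.1. For eosinophil markers, the medians were 1335 in the 20 eosinophil partners, 1.67 in the 20 cells beside them, 1.98 in the 89 cells with other partners from outside the line, and 3.27 with neutrophil-line partners alone. Eosinophil sums of at least 10 were found in 5 of 20, 15 of 89 and 27 of 106 neutrophil-line cells, and the highest were 32.6, 1240 and 674. The medians were thus not higher beside a partner of that lineage, while the highest erythroid sum and, among cells with another partner, the share at or above 10 were. These differences were not tested.

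At the level of library sums, edgeR in the main fit called no gene of the lists of other lineages, while DESeq2 called Psap, of the monocyte and dendritic list, lower (-1.07, adjusted p = 0.0446). Without the expression filter edgeR also called Mb (-3.80, adjusted p = 5.2e-04), Eno3, Ctss, Gpnmb, Mfge8, Fabp4 and Mc1r lower. Without replicate 11 it called Pvalb lower (-5.50, adjusted p = 0.0024). These genes were named after their values were seen, and the cells they came from were not tested. Of 15 erythroblast genes, 7 stood above 0 and 8 below with a median of -0.10, and the summed list reached 310 per 10000 in the 2 cells with another partner of replicate 5 and 105 in replicate 3, against medians over libraries of 15.7 with another partner and 16 without. All 4 tested eosinophil genes stood below 0 (median -1.52), with Ear2 at -1.38 (edgeR adjusted p = 0.496). The eosinophil sum had medians over libraries of 3.54 per 10000 with another partner and 11.2 without. With another partner it was higher in 4 libraries, lower in 7 and equal in 1. It reached 142 with another partner in replicate 16, and its mean was higher with another partner, at 18.9 against 14.7. Of the macrophage, monocyte and dendritic, and megakaryocyte lists, 2 of 3, 3 of 4 and 3 of 3 stood below 0. All 13 skeletal muscle genes stood below 0 (median -2.26), and that sum reached 267 per 10000 in replicate 15 and 201 in replicate 9 among cells with neutrophil-line partners alone, against medians over libraries of 2.16 there and 1.51 with another partner. At 2000 transcripts, 10 of 10 muscle genes stood above 0 (median 1.62). The part of such transcripts in the calls was not tested.

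Cells with another partner held more transcripts. The median per library had a lowest, median and highest value of 2096, 3325 and 6190 transcripts per cell with another partner and of 1167, 2686 and 4157 without. The mean difference was 948 ± 1304 (SD, n = 12), with more in 9 of 12 libraries (exact 2-sided sign-flip permutation test, p = 0.0313, adjusted over 3 tests 0.0313). Genes detected per cell had library medians of 1358 and 1140 and a mean difference of 318 ± 406 (SD, n = 12, exact sign-flip permutation p = 0.0249, adjusted 0.0313), again higher in 9 of 12. Neither held with other limits on transcripts: at 2000 per cell the difference in transcripts was -32.9 (exact permutation p = 0.969, n = 8) and that in genes 69.4 (p = 0.703). Leaving out any of 6 of the 12 libraries also took the difference in transcripts past 0.05, with p up to 0.0625.

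Neutrophil-line cells of 1 clump resembled each other more than those of different clumps. Likeness was the Pearson correlation of log profiles over 4256 genes without the 7 of the rule, taken across genes, which are not independent replicates. It could be computed in 12 libraries with 75 pairs within clumps, which include replicate 2 and not replicate 5. The pairs between clumps also took in neutrophil-line cells with no kept partner, which are not among the 215 members. Such a correlation also depends on transcripts per cell, which were not matched between the 2 kinds of pair. The mean per library had a lowest, median and highest value of 0.348, 0.390 and 0.474 within clumps and of 0.324, 0.355 and 0.394 between clumps. The difference was 0.0441 ± 0.0372 (SD, n = 12) and above 0 in 10 libraries (exact 2-sided sign-flip permutation test, p = 0.00195, adjusted over 3 tests 0.00586; the smallest p possible was 4.88e-04). Most of the within-clump pairs were of 1 stage, as given above. Among pairs of the same stage, 48 within clumps in 10 libraries, the difference was 0.0245 ± 0.0475 (SD, n = 10), above 0 in 6 (exact sign-flip permutation p = 0.146).

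**Figure D5:**
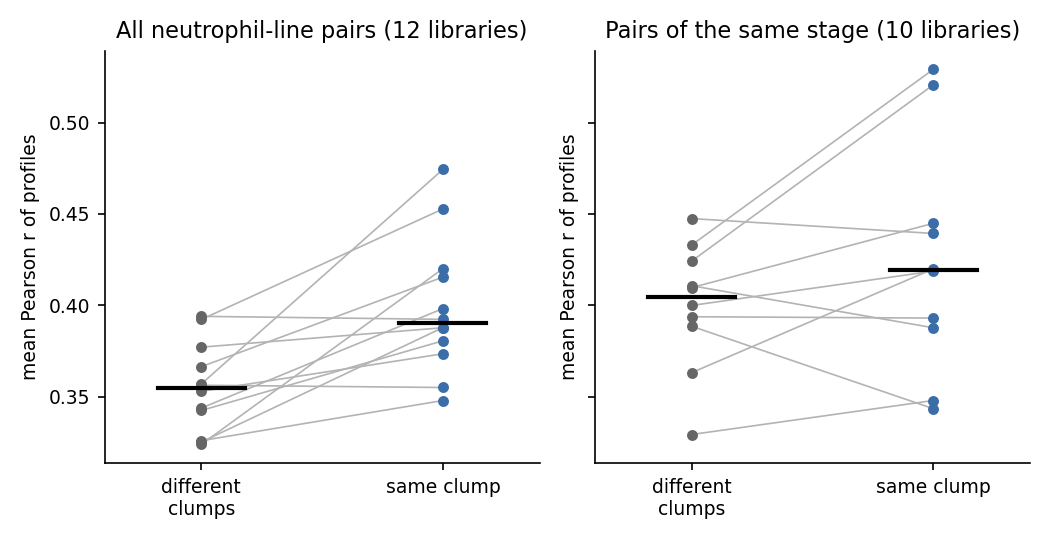
Mean Pearson correlation of the profiles of neutrophil-line pairs from different clumps of a library and from the same clump, for all pairs (12 libraries) and for pairs of the same stage (10 libraries). Points are libraries, grey lines join the 2 values of a library and black bars are medians; the within-clump value was higher in 10 of 12 libraries on the left and in 6 of 10 on the right.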

How the data were processed

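The deposited table of the series holds estimated transcript counts (expected counts, not whole numbers) for 23536 genes and 1915 cells. The submitters' processing notes name BWA 0.6.2-r126 and mm10, and no source used here states the other steps. Of the micro-dissected libraries, 17 were used, and replicate 18 was not analysed here. Replicates are numbered in record order, which pairs nothing. Clump numbers come from the column names, a reading the labels do not explain. The members, the gene lists and the rules were chosen with earlier results of these data known.

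Transcripts were summed per library and partner type (at least 2 cells each) and rounded. The test was edgeR 4.0.16 in R 4.3.3 (TMM, filterByExpr, robust quasi-likelihood) with library as a block, because both sums come from the same library. It was tested on simulated counts, where 92.7% of 164 genes changed 4-fold were recovered and 5 of 803 unchanged genes were called. The 164 and 803 are genes that passed the expression filter. Those counts had a common mean per gene, a fixed dispersion and no differences between libraries or stages beyond their totals. The rates therefore need not hold for these data. SEs are approximate (absolute log2 fold change divided by root F). The 7 genes of the rule were left out of the adjustment and of the calls. Named genes were the 12 highest and 12 lowest calls, or, where fewer than 8 passed, those of smallest p up to 8, and the 4 most abundant tested members of each of 21 lists. Single values were tested by exact sign flips over libraries (scipy 1.17.1). Doublets were not called, since cells were separated by hand; in 1 alternative each library's deepest 5% of cells were dropped. Depth is given per library in the report.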

Additional observations from a re-analysis of the deposited data

Results flagged for a closer look

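Within the secondary granule stage, a single library stood far from the others for each called gene. Mmp8 with neutrophil-line partners alone reached 63.8 per 10000 in replicate 17, from 2 cells, with the next library at 20.4. S100a6 with another partner reached 19.6 per 10000 in replicate 10, from 5 cells, with the next at 6.53. By this criterion, chance singles out about 1 in 20 groups.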

How the results depend on the processing

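The number of genes called was 2. It was 1 with library totals, 8 in DESeq2, 10 without the expression filter (1 higher), 6 from 500 transcripts per cell (1 higher), 1 without the deepest 5% of cells, 8 with erythroid partners alone, and 1 within the secondary granule stage, also without replicate 17. It was 0 from 2000 transcripts, with at least 4 cells per sum, with thresholds doubled or halved, with stage as a term, within the primary granule stage, in clumps of 2 kept cells, and without replicates 3, 4 and 5 together; the last of these and the repeat without replicate 17 were chosen after seeing the data. Both sums come from the same library, and the fit without that replicate block called 0. These counts of 0 come from edgeR, with 3 to 171 genes at an unadjusted p under 0.05. Leaving out a library gave 0 to 4 calls: 0 without replicate 5, 9, 14 or 16, 4 without replicate 10 (Mmp8, S100a6, Ear2 and Alox15), and 1 without replicate 3, 12 or 17, which was Mc1r, named after its value was seen, without replicate 3 and Mmp8 in the others. RLE factors kept both genes. Allowing sums from 1 cell added no library, so that setting repeated the main fit and is no separate check. Mmp8 and S100a6 stayed below 0 in each fit that held them.

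The difference in transcripts was 696 from 500 transcripts (exact permutation p = 0.126), -32.9 from 2000 (p = 0.969), 0.29 as a mean of log2 transcripts (p = 0.0752), and 805 to 1149 with a library left out. That in genes detected was 249 from 500 (p = 0.104) and 69.4 from 2000 (p = 0.703). Likeness was 0.0245 for pairs of the same stage (exact permutation p = 0.146) and 0.0374 to 0.0482 with a library left out. The cause of these changes was not tested. Of 2412 values of 86 named genes under alternatives, 2170 kept sign and side of the threshold, 36 lost it, 18 passed it and 188 changed sign without passing. The values kept include those of the setting with sums from 1 cell, which repeated the main fit. A repeat at matched well distances was not run, because column names give no wells. Few cells per library limit the precision.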

Other observations

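Neutrophil-line cells with no kept partner entered no test of partner type, but were part of the pairs between clumps in the test of likeness. Their median Mmp8 level was 11 per 10000 over the 12 libraries (lowest 0, highest 97.7). Their median S100a6 level was 10.0 (lowest 0, highest 38.6). Both medians were nearer to those of cells with neutrophil-line partners alone, 9.73 and 11.8, than to those with another partner, 3.68 and 3.65. For the primary granule genes their medians lay between the 2 kinds, at 15.1 for Elane and 19.9 for Prtn3.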
